A study of Homo sapiens with 8 samples.

Results

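The E2F and DP family comprises 10 genes, E2F1 to E2F8, TFDP1 and TFDP2. Each was taken by its symbol from the deposited tables, and where a symbol had several transcripts, the one with the highest mean count was kept. All 10 were among the 15670 genes tested, of 23735 symbols in the tables, and none was lost to the filter on low counts. The RNA came from cultured HCT-116, a long-established line of human colorectal carcinoma. Cells received 40 µM 5-fluorouracil (5-FU, an antimetabolite that blocks thymidylate synthase) or DMSO for 12 h, were washed, and then received 2.5 µM 3-MB-PP1 or DMSO for 4 h. This gave 4 groups of 2 libraries each, namely 5-FU then 3-MB-PP1, 5-FU then DMSO, DMSO then 3-MB-PP1, and DMSO then DMSO. 3-MB-PP1 is a bulky ATP analogue that inhibits kinases engineered to accept it. The series' design text names CDK7, the kinase that activates other CDKs and phosphorylates RNA polymerase II, among the inhibited proteins. Which kinase allele the cells carried is not in the labels, nor whether they were a single clone or the replicates separate cultures. The p-values thus measure only the spread between these libraries, which may be technical.

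E2F proteins bind DNA and control genes of DNA replication and cell division. E2F1 to E2F3 are the activators, held inactive by the retinoblastoma protein RB1 until CDKs phosphorylate it. E2F4 and E2F5 act mainly as repressors with the pocket proteins RBL1 and RBL2, and E2F6 represses without a pocket protein, as part of a Polycomb complex. E2F7 and E2F8 are atypical repressors that bind DNA without a DP partner, while E2F1 to E2F6 bind as dimers with TFDP1 or TFDP2. Several family genes are themselves E2F targets, and p53 can lower E2F targets through the CDK inhibitor p21, the product of CDKN1A.

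Gene counts ranged from 10583906 to 50518205 per library. The deepest library was a DMSO then 3-MB-PP1 library, and the lowest count of any family gene in any library was 54, for E2F1. Log2 CPM, the counts scaled with TMM to the library size (CPM), correlated across genes at 0.993 to 0.994 between the libraries of a group. ERCC spike-in RNA took 2.18% to 4.16% of the authors' totals and differed by up to 1.76-fold between replicates. Of the epithelial markers, EPCAM lay at 97.0 to 127 RPKM, the authors' read count scaled to transcript length and library total. KRT8, KRT18 and KRT19 lay at or above 243 RPKM and CDH1 at 3.70 to 4.46 RPKM, while VIL1 did not exceed 0.113 RPKM. The 6 epithelial markers together summed to 2408 to 2425 RPKM after 5-FU then 3-MB-PP1, 2759 to 2792 after 5-FU then DMSO, 1639 to 1660 after DMSO then 3-MB-PP1 and 1522 to 1590.4 after DMSO then DMSO. The 8 markers of leukocytes, endothelium and fibroblasts were summed in the same order of groups. Their sums were 4.37 to 5.06 RPKM, 4.77 to 4.99, 3.83 to 3.85 and 3.87 to 4.35. Among these markers COL1A1 was the highest, at up to 3.389 RPKM, followed by PECAM1 at up to 1.659 RPKM. PTPRC, the next, did not exceed 0.579 RPKM, and COL1A2 was listed at 0 in all 8 libraries. The part of these marker differences in the results was not tested.

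Promoter windows of 250 bases before to 50 after the transcript start, from RefSeq on GRCh38.p14, were available for 8 of the 10 genes. They were searched on both strands for the E2F motif, written as TTTCCCGC, TTTCGCGC, TTTGCCGC or TTTGGCGC. A match was found in 3.31% of all 35116 windows, or in any window of 3.99% of 27305 symbols. In the family, 4 of 8 genes held one, namely E2F1, E2F2, E2F3 and TFDP1. The 4 windows shown belong to E2F1 and E2F2, the family genes with the lowest values relative to DMSO after 5-FU, to E2F6, the one with the lowest value after 3-MB-PP1, and to the abundant partner TFDP1. Capitals mark E2F motif matches, and each sequence runs 5′ to 3′ on the strand of its gene.
E2F1 promoter (chr20:33686336-33686635, minus strand): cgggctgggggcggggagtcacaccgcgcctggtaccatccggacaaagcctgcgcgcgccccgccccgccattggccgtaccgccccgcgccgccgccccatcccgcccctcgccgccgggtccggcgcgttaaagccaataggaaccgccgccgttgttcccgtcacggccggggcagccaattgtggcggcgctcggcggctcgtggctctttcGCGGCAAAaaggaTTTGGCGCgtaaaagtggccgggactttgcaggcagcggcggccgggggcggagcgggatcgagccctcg
E2F2 promoter (chr1:23531184-23531483, minus strand): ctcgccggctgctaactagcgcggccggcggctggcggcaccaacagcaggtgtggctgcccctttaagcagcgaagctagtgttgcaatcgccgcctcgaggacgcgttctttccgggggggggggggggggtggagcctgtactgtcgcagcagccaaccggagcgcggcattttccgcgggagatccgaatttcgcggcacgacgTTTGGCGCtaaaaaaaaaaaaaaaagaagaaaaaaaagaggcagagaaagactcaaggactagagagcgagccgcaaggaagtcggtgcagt
E2F6 promoter (chr2:11466112-11466411, minus strand): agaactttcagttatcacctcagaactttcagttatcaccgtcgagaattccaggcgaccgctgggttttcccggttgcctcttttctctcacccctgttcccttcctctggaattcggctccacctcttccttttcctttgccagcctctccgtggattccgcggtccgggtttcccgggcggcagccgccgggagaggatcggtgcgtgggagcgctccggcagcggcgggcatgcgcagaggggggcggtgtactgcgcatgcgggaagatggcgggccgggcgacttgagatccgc
TFDP1 promoter (chr13:113584503-113584802, plus strand): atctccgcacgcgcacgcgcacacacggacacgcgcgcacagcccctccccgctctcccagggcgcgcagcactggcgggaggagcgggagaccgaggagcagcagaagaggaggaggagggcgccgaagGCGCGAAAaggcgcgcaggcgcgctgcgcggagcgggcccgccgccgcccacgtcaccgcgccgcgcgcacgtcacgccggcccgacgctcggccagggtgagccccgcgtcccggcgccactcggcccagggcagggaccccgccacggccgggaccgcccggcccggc
The E2F1 window held 2 matches, 33 to 26 and 20 to 13 bases before the start, on opposite strands and not overlapping. The match of E2F2 lay 42 to 35 bases before the start, that of E2F3 53 to 46 bases before the start of the first of its 2 windows, and that of TFDP1 120 to 113 bases before. These letters were not in the windows of E2F4, E2F6, E2F7 and TFDP2. Another motif of cell cycle promoters, the CHR element TTTGAA, was in 15.2% of all windows, or in any window of 18.2% of symbols, and in a window of 2 of the 8 genes, E2F3 and TFDP2. Among 30 E2F target genes of replication and division chosen as a list, 26 had a window and 15 of these (57.7%) held the E2F motif, against 2 of 14 genes of the E2F6 complex (14.3%).

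All 10 genes were expressed in every library, and levels between genes are compared in RPKM, which accounts for length. Of the 10 genes, TFDP1 and E2F4 were the highest in each group. In DMSO then DMSO, TFDP1 averaged 102 RPKM and E2F4 65.5 RPKM, followed by E2F3 (14.4 RPKM), E2F8 (13.8 RPKM), E2F6 (12.9 RPKM), E2F1 (11.9 RPKM), E2F5 (11.1 RPKM), E2F2 (9.81 RPKM), TFDP2 (7.59 RPKM) and E2F7 (5.61 RPKM). E2F3 and E2F8, and E2F8 and E2F6, lay closer together than the sum of their SDs (n = 2), and the other neighbours in that order lay farther apart. After 5-FU then DMSO the order was E2F4 (72.4 RPKM) and TFDP1 (69.5 RPKM), which were closer than their summed SDs, then E2F5 (11.7 RPKM), E2F6 (11.1 RPKM), E2F3 (10.2 RPKM), TFDP2 (7.54 RPKM), E2F7 (3.58 RPKM), E2F8 (2.89 RPKM), E2F1 (2.06 RPKM) and E2F2 (1.39 RPKM). Of the remaining neighbours in this order, E2F5 and E2F6 did not differ beyond their SDs. After DMSO then 3-MB-PP1 the lowest pair was E2F6 (5.68 RPKM) and E2F7 (5.65 RPKM), which did not differ beyond their SDs, nor did E2F5 (10.9 RPKM) and E2F8 (10.8 RPKM). After 5-FU then 3-MB-PP1 the lowest pair was E2F1 (1.80 RPKM) and E2F2 (1.51 RPKM), also within their SDs, as were E2F3 (11.4 RPKM) and E2F5 (11.2 RPKM).

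Summed by role, the activators E2F1 to E2F3 reached 14.8 ± 0.449 RPKM after 5-FU then 3-MB-PP1, 13.6 ± 0.473 after 5-FU then DMSO, 35.0 ± 1.18 after DMSO then 3-MB-PP1 and 36.1 ± 0.00495 after DMSO then DMSO (SD, n = 2 each). That was 16.1%, 11.8%, 27.9% and 24.9% of all E2F RPKM in the same order of groups. The repressors E2F4 to E2F6 summed to 69.4 ± 1.42, 95.2 ± 1.31, 74.0 ± 3.81 and 89.6 ± 5.26 RPKM, or 75.9%, 82.6%, 59.0% and 61.7% of the E2F sum, most of it E2F4. The atypical E2F7 and E2F8 summed to 7.30 ± 0.695, 6.47 ± 0.407, 16.4 ± 0.219 and 19.4 ± 0.714 RPKM. The DP genes reached 82.1 ± 1.33, 77.1 ± 2.84, 111 ± 2.22 and 109.9 ± 0.0339 RPKM. The groups that had received 5-FU thus held less activator, atypical and DP RNA, as a share of reads, than the groups that had not, and the groups that had received 3-MB-PP1 held less repressor RNA. These sums are descriptions without a test.

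**Figure D1:**
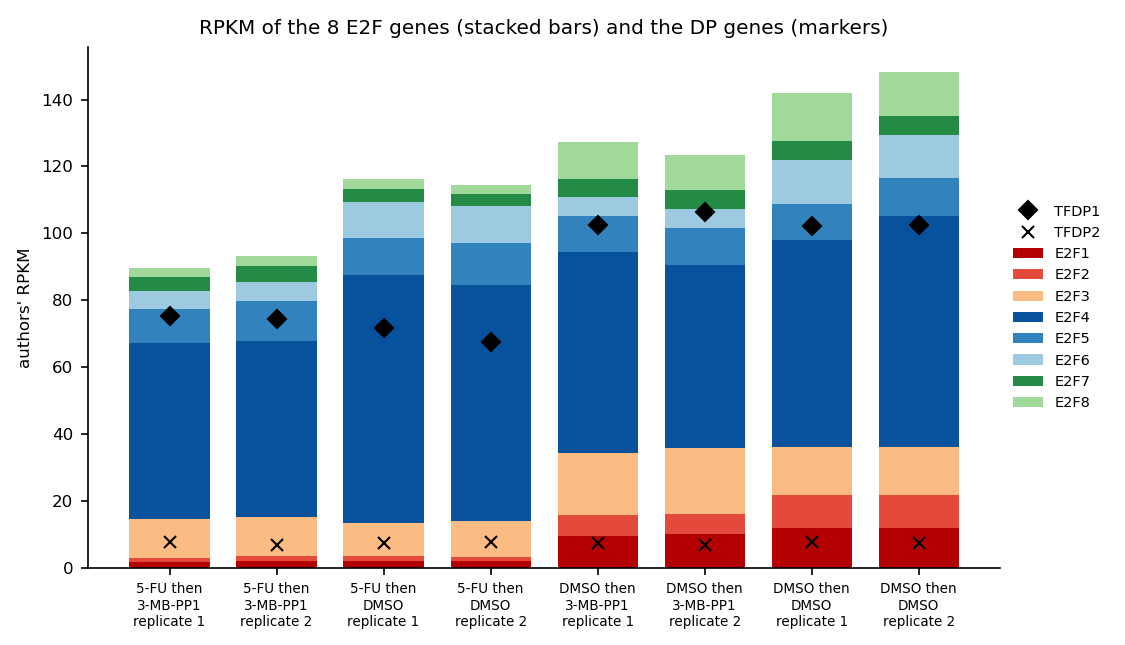
Authors' RPKM (y axis) of the 8 E2F genes as stacked bars, and of TFDP1 (diamonds) and TFDP2 (crosses), in each of the 8 libraries, ordered by treatment along the x axis. E2F4 is the widest band in every bar, and the E2F1, E2F2 and E2F8 bands are narrow in the 4 libraries that received 5-FU.

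The comparison of 5-FU then DMSO with DMSO then DMSO asked how the antimetabolite alone changed the family. Of the 10 genes, 7 fell and none rose, at an adjusted p under 0.05 in edgeR's quasi-likelihood test, beside 22.7% of all genes tested that fell and 21.3% that rose (44% in all). None rose at an unadjusted p under 0.05 or with DESeq2 either. The median log2 fold change of the family was -0.55, against 0.003 over all genes tested. E2F1, E2F2 and E2F8 fell by more than 2-fold, E2F3, E2F6, E2F7 and TFDP1 fell by less, and E2F4, E2F5 and TFDP2 were not called. When 3-MB-PP1 followed in both groups, 6 genes fell and none rose, beside 19.9% of all genes tested that fell and 19.7% that rose (39.6% in all), and again none rose at an unadjusted p under 0.05 or with DESeq2. Both comparisons describe 5-FU, in different libraries. In bulk RNA, fewer cells in a cell cycle phase and less RNA per cell cannot be told apart.

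3-MB-PP1 was tested without and with 5-FU before it. Without 5-FU, 5 genes fell (E2F1, E2F2, E2F4, E2F6 and E2F8) and 1 rose (E2F3), beside 16.9% of all genes tested that fell and 11.6% that rose (28.5% in all). After 5-FU, 2 fell (E2F4 and E2F6) and 1 rose (E2F7), beside 17.3% and 15.7% (33% in all), so the share of the family that was called there was close to that of all genes. The interaction, the 3-MB-PP1 effect after 5-FU minus that without 5-FU, was called for 1 gene, E2F2, beside 4.15% of all genes tested. Each of these comparisons shares a group with another one, so their values are given side by side and are not independent.

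**Figure D2:**
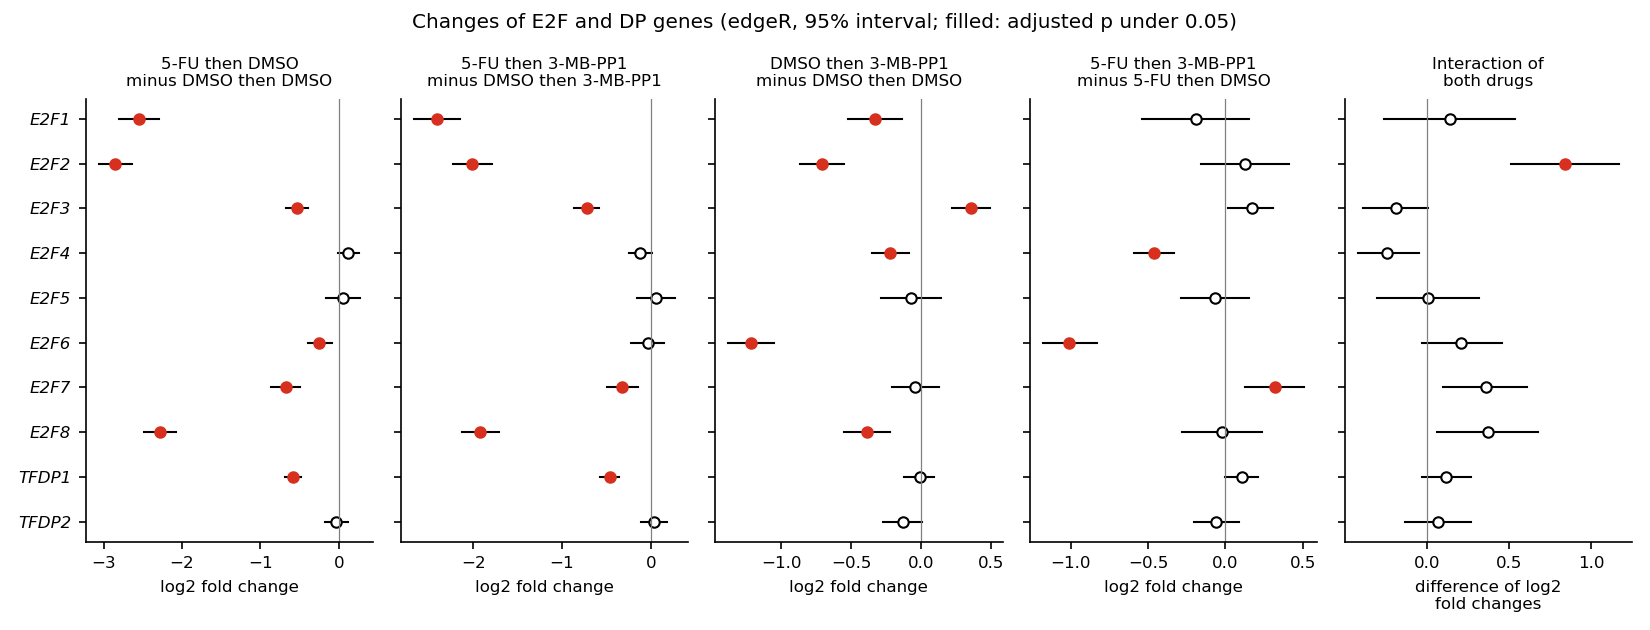
Log2 fold changes (x axis) of the 10 family genes in 4 comparisons, and in the last panel the interaction as a difference of log2 fold changes, from edgeR with 95% intervals. Filled points have an adjusted p under 0.05. E2F1, E2F2 and E2F8 lie near or below -2 in both 5-FU panels, and E2F6 near -1 in both 3-MB-PP1 panels.

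E2F1 is the activator best known for driving entry into S phase and, when in excess, apoptosis. The gene lies on hg19 chromosome 20 from 32263292 to 32274210 on the minus strand and was counted over a single transcript row. It had 4.27 and 5.48 CPM after 5-FU then 3-MB-PP1, 5.72 and 5.46 CPM after 5-FU then DMSO, 25.6 and 26.6 CPM after DMSO then 3-MB-PP1, and 33.0 and 32.5 CPM after DMSO then DMSO. All 4 libraries with 5-FU lay far below the 4 without, and the 2 groups with 5-FU overlapped. With 5-FU alone E2F1 fell to 0.171 times its DMSO level (log2 fold change -2.55, SE 0.12, edgeR adjusted p = 1.89e-15). Before 3-MB-PP1 the fall with 5-FU was -2.41 (SE 0.13, edgeR adjusted p = 3.68e-14). 3-MB-PP1 alone lowered E2F1 by a log2 fold change of -0.33 (SE 0.09, edgeR adjusted p = 0.00766), but this call was lost with DESeq2 (adjusted p = 0.0974), without DMSO then 3-MB-PP1 replicate 1 (0.104) and without DMSO then DMSO replicate 1 (0.054). After 5-FU its value was -0.19 (SE 0.17, edgeR adjusted p = 0.41).

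E2F2, an activator like E2F1, lies on hg19 chromosome 1 from 23832920 to 23857712 on the minus strand. It had 7.52 and 8.26 CPM after 5-FU then 3-MB-PP1, 7.63 and 6.83 CPM after 5-FU then DMSO, 32.0 and 31.4 CPM after DMSO then 3-MB-PP1, and 51.7 and 52.4 CPM after DMSO then DMSO. The groups without 5-FU lay apart from each other, with the 3-MB-PP1 libraries lower, while the groups with 5-FU overlapped. 5-FU alone lowered E2F2 to 0.139 times its DMSO level (log2 fold change -2.85, SE 0.10, edgeR adjusted p = 6.96e-18), the largest fall in the family in that comparison, and 5-FU before 3-MB-PP1 gave -2.01 (SE 0.11, edgeR adjusted p = 3.33e-14). 3-MB-PP1 alone lowered it by -0.71 (SE 0.08, edgeR adjusted p = 1.82e-07), and after 5-FU its value was 0.13 (SE 0.14, edgeR adjusted p = 0.516). The difference of these values, 0.84 with a 95% interval of 0.51 to 1.17, passed (edgeR adjusted p = 0.00215).

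E2F3, the third activator, lies on hg19 chromosome 6 from 20402137 to 20493945 on the plus strand. It had 57.6 and 57.3 CPM after 5-FU then 3-MB-PP1, 48.3 and 54.0 CPM after 5-FU then DMSO, 92.2 and 98.1 CPM after DMSO then 3-MB-PP1, and 73.7 and 74.0 CPM after DMSO then DMSO. No 2 groups overlapped, and the group with 3-MB-PP1 alone was the highest. E2F3 rose with 3-MB-PP1 alone by a log2 fold change of 0.36 (SE 0.06, edgeR adjusted p = 0.000143), while E2F1 and E2F2 fell there. It fell with 5-FU alone by -0.53 (SE 0.07, edgeR adjusted p = 6.12e-07) and before 3-MB-PP1 by -0.72 (SE 0.07, edgeR adjusted p = 2.17e-09). After 5-FU, 3-MB-PP1 gave 0.17 (SE 0.07, edgeR adjusted p = 0.0735), which passed only without 5-FU then DMSO replicate 2 (0.25, adjusted p = 0.0271). A second transcript row of E2F3, which held 88.3% to 96.4% of the kept row's count, gave similar changes in RPKM, 0.36 on the log2 scale with 3-MB-PP1 alone, against 0.41 for the kept row.

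**Figure D3:**
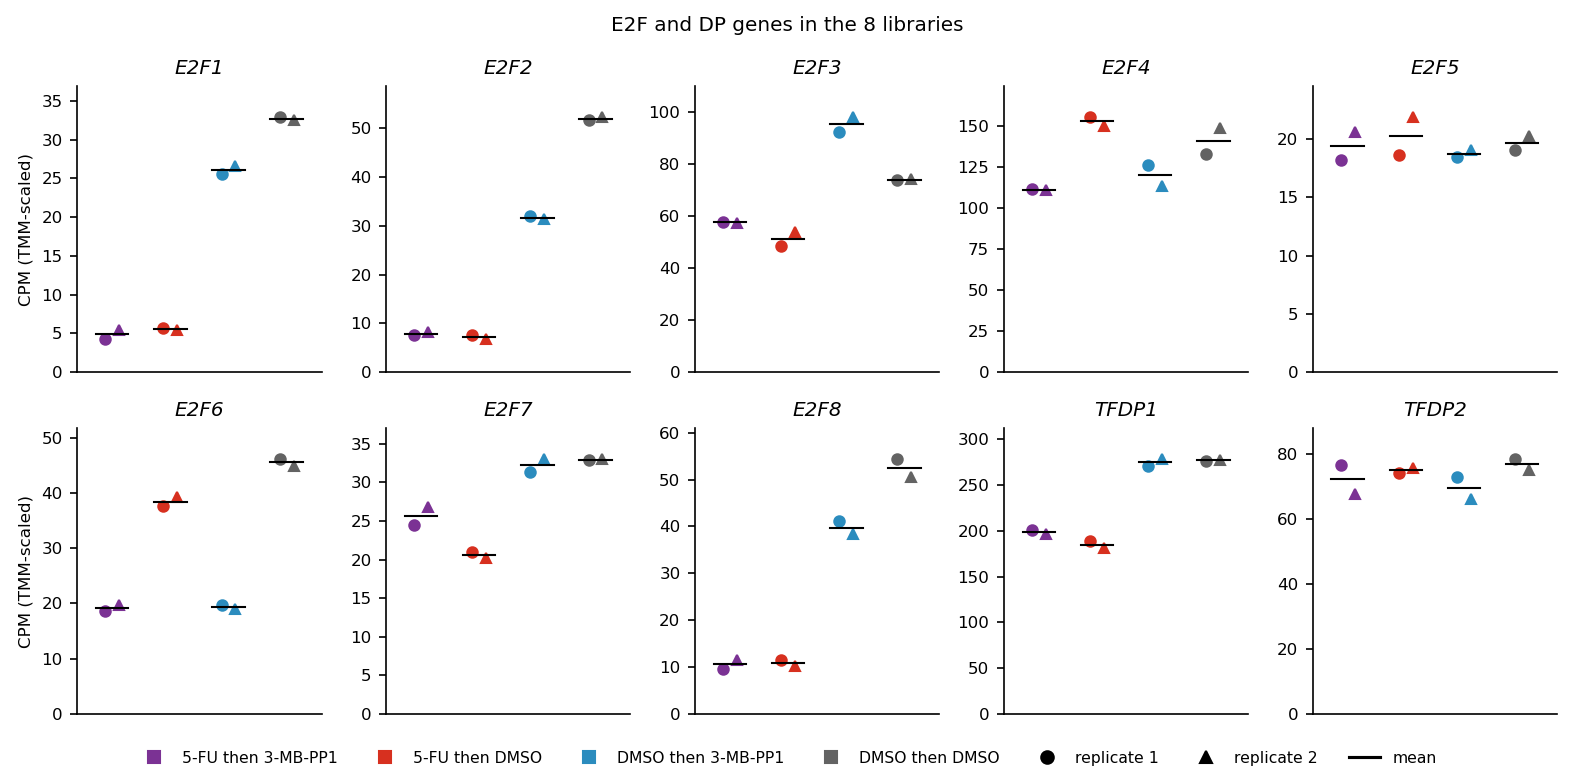
TMM-scaled CPM (y axis, from 0) of each family gene in the 8 libraries, with the 4 treatments side by side along the x axis and the mean as a bar. E2F1, E2F2 and E2F8 are low in both groups with 5-FU, E2F6 is low in both groups with 3-MB-PP1, and E2F5 and TFDP2 stay at similar levels in all 4 groups.

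E2F4, the most abundant E2F in RPKM and a repressor in quiescent cells, lies on hg19 chromosome 16 from 67226068 to 67232821 on the plus strand. It had 111 and 110.9 CPM after 5-FU then 3-MB-PP1, 155 and 149.7 CPM after 5-FU then DMSO, 126 and 113 CPM after DMSO then 3-MB-PP1, and 133 and 148 CPM after DMSO then DMSO. Both pairs of groups that differ in 3-MB-PP1 lay apart, with the 3-MB-PP1 libraries lower. After 5-FU, 3-MB-PP1 lowered E2F4 by a log2 fold change of -0.46 (SE 0.06, edgeR adjusted p = 5.6e-06). Without 5-FU the fall was -0.22 (SE 0.06, edgeR adjusted p = 0.00957), a call lost without DMSO then 3-MB-PP1 replicate 2 (-0.16, adjusted p = 0.0844) and without DMSO then DMSO replicate 2 (-0.14, adjusted p = 0.209). The difference between both effects, -0.24, did not pass (edgeR adjusted p = 0.151), but did without DMSO then 3-MB-PP1 replicate 2 (-0.30, adjusted p = 0.0424). With 5-FU alone E2F4 had a value of 0.12 (SE 0.06, edgeR adjusted p = 0.138), which passed without DMSO then DMSO replicate 2 (0.20, adjusted p = 0.0458). Before 3-MB-PP1 the value was -0.12 (edgeR adjusted p = 0.146), which passed without DMSO then 3-MB-PP1 replicate 2 (-0.18, adjusted p = 0.0365).

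E2F5, the other pocket protein-bound repressor, lies on hg19 chromosome 8 from 86089619 to 86126753 on the plus strand. Its 3′ end overlaps C8orf59 on the other strand, and since it is not stated whether counting used strand, its counts are uncertain. It had 18.2 and 20.6 CPM after 5-FU then 3-MB-PP1, 18.7 and 21.9 CPM after 5-FU then DMSO, 18.5 and 19.1 CPM after DMSO then 3-MB-PP1, and 19.1 and 20.2 CPM after DMSO then DMSO. All groups overlapped. With 5-FU alone the log2 fold change was 0.05, with a 95% interval of -0.17 to 0.27, and with 3-MB-PP1 alone -0.07, with an interval of -0.29 to 0.14.

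E2F6, the pocket-independent repressor, lies on hg19 chromosome 2 from 11584501 to 11606297 on the minus strand and showed the largest change of the family with 3-MB-PP1. It had 18.6 and 19.7 CPM after 5-FU then 3-MB-PP1, 37.6 and 39.2 CPM after 5-FU then DMSO, 19.8 and 19.1 CPM after DMSO then 3-MB-PP1, and 46.2 and 44.9 CPM after DMSO then DMSO. The groups with 3-MB-PP1 overlapped each other and lay well below those without. 3-MB-PP1 alone lowered E2F6 to 0.43 times its DMSO level (log2 fold change -1.22, SE 0.08, edgeR adjusted p = 2.64e-11), and after 5-FU to 0.498 times the level with 5-FU then DMSO (-1.01, SE 0.09, edgeR adjusted p = 2.97e-09). Ordered by p, E2F6 stood at place 27 of the 15670 genes tested with 3-MB-PP1 alone and at place 103 after 5-FU. The difference between both effects was 0.21, with a 95% interval of -0.03 to 0.46 (edgeR adjusted p = 0.358). With ERCC scaling the values were -1.02 with 3-MB-PP1 alone (adjusted p = 1) and -1.12 after 5-FU (adjusted p = 0.975), and neither was called. 5-FU alone lowered it by -0.25 (SE 0.08, edgeR adjusted p = 0.011), a call lost with DESeq2 (adjusted p = 0.08), without 5-FU then DMSO replicate 1 (0.0812) and without DMSO then DMSO replicate 1 (0.0802). Before 3-MB-PP1 the value was -0.03 (edgeR adjusted p = 0.819). The 5 transcript rows of E2F6 shared nearly all their reads (94.4% to 100% of the kept row), and in RPKM they changed by -1.16 to -1.19 on the log2 scale with 3-MB-PP1 alone. The kept row carries a RefSeq identifier for a non-coding transcript, so the counts do not separate coding from non-coding forms. GENCODE 29 names 4 processed pseudogenes of E2F6, 2 of E2F3 and 1 of E2F4, and how reads shared with them were counted is not given in the sources used here.

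E2F7, an atypical repressor of E2F target genes and itself a p53 target, lies on hg19 chromosome 12 from 77415026 to 77459360 on the minus strand. It had 24.4 and 26.9 CPM after 5-FU then 3-MB-PP1, 21.0 and 20.3 CPM after 5-FU then DMSO, 31.4 and 33.1 CPM after DMSO then 3-MB-PP1, and 32.8 and 33.0 CPM after DMSO then DMSO. The groups with 5-FU lay below those without and apart from each other. E2F7 fell with 5-FU alone (log2 fold change -0.68, SE 0.09, edgeR adjusted p = 6.74e-07). It fell with 5-FU before 3-MB-PP1 by -0.32 (SE 0.08, edgeR adjusted p = 0.00384), a call lost without 5-FU then 3-MB-PP1 replicate 1 (adjusted p = 0.085). After 5-FU, 3-MB-PP1 raised E2F7 by 0.32 (SE 0.09, edgeR adjusted p = 0.0102), a call lost with DESeq2 (adjusted p = 0.0549), without 5-FU then 3-MB-PP1 replicate 2 (0.153) and without 5-FU then DMSO replicate 2 (0.0621). Without 5-FU the value was -0.04 (edgeR adjusted p = 0.745), and the difference, 0.36, did not pass (edgeR adjusted p = 0.106).

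E2F8, the other atypical repressor, lies on hg19 chromosome 11 from 19245610 to 19262507 on the minus strand. It had 9.65 and 11.6 CPM after 5-FU then 3-MB-PP1, 11.5 and 10.1 CPM after 5-FU then DMSO, 41.1 and 38.4 CPM after DMSO then 3-MB-PP1, and 54.5 and 50.5 CPM after DMSO then DMSO. Like E2F1 and E2F2, it was low in all 4 libraries with 5-FU. 5-FU alone lowered it to 0.205 times its DMSO level (log2 fold change -2.28, SE 0.10, edgeR adjusted p = 3.48e-16), and 5-FU before 3-MB-PP1 gave -1.92 (SE 0.10, edgeR adjusted p = 4.45e-14). 3-MB-PP1 alone lowered E2F8 by -0.39 (SE 0.08, edgeR adjusted p = 6e-04), and after 5-FU its value was -0.02, with a 95% interval of -0.28 to 0.24. The difference, 0.37, did not pass (edgeR adjusted p = 0.187).

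TFDP1, the main dimer partner of the E2Fs, lies on hg19 chromosome 13 from 114239056 to 114295788 on the plus strand. It had 201 and 197 CPM after 5-FU then 3-MB-PP1, 189 and 181 CPM after 5-FU then DMSO, 271 and 279 CPM after DMSO then 3-MB-PP1, and 277 and 278 CPM after DMSO then DMSO. The libraries with 5-FU lay below those without, and the groups without 5-FU overlapped. TFDP1 fell with 5-FU alone (log2 fold change -0.58, SE 0.05, edgeR adjusted p = 4.2e-10) and before 3-MB-PP1 (-0.46, SE 0.05, edgeR adjusted p = 3.52e-08). With 3-MB-PP1 it was not called, either alone (-0.01, 95% interval -0.12 to 0.09) or after 5-FU (0.11, edgeR adjusted p = 0.116).

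TFDP2, the second DP partner, lies on hg19 chromosome 3 from 141663270 to 141868386 on the minus strand. It had 76.6 and 67.9 CPM after 5-FU then 3-MB-PP1, 74.3 and 75.7 CPM after 5-FU then DMSO, 73.2 and 66.2 CPM after DMSO then 3-MB-PP1, and 78.7 and 75.3 CPM after DMSO then DMSO. It was called in no comparison. With 5-FU alone its log2 fold change was -0.04, with a 95% interval of -0.18 to 0.11, so a fall of the size seen for TFDP1 lay outside that interval. With 3-MB-PP1 alone it was -0.13, with an interval of -0.27 to 0.01.

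TMM scaling gives changes relative to the other genes. When libraries were scaled to the ERCC spike-ins instead, the median change of all genes moved to 0.125 for 5-FU alone and to 0.189 for 3-MB-PP1 alone, and to -0.115 with 3-MB-PP1 after 5-FU, -0.19 with 5-FU before 3-MB-PP1 and -0.305 for the interaction. Under that scaling E2F1, E2F2 and E2F8 remained called in both 5-FU comparisons and no family gene was called in the other comparisons, while over all genes 244 calls were made for 5-FU alone and 113 for 3-MB-PP1 by itself. The values of E2F1, E2F2 and E2F8 under this scaling were -2.43, -2.73 and -2.14 with 5-FU alone and -2.62, -2.21 and -2.09 before 3-MB-PP1.

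CDKN1A and the genes for pocket proteins and their partners were described next. CDKN1A rose with 5-FU alone (log2 fold change 2.98, SE 0.05, edgeR adjusted p = 6.59e-24) and fell with 3-MB-PP1 after 5-FU (-0.89, SE 0.05, edgeR adjusted p = 1.97e-13). Of 11 genes for pocket proteins, the MuvB complex that works with them, and its partners of the MYB family and FOXM1, 10 fell and 0 rose with 5-FU alone (median -0.97), and 0 rose at an unadjusted p under 0.05 or with DESeq2, beside 22.7% of all genes tested that fell. These included MYBL2 (-1.84), a MYB family factor of dividing cells, and RBL1 (-1.27), RB1 (-0.56) and RBL2 (-0.28), of which RB1 and RBL2 overlap a gene on the other strand. With 3-MB-PP1 alone 2 of the 11 fell (RBL1, -0.39, and MYBL2, -0.22) and RBL2 rose (0.26), beside 16.9% and 11.6% of all genes tested. The called share of the 11 was thus close to that of all genes (28.5%). The count of falls was 1, and RBL2 was not called, with DESeq2, without DMSO then 3-MB-PP1 replicate 2 and without DMSO then DMSO replicate 2, and RBL2 was not called without DMSO then DMSO replicate 1 either. After 5-FU, 5 rose and 0 fell, beside 15.7% and 17.3% of all genes tested, among them MYBL1 (0.46), RBBP4 (0.41, overlapping SYNC) and RB1 (0.38), while RBL1 had a value of 0.01. Before 3-MB-PP1, 5-FU again lowered 10 and raised 0 of the 11, beside 19.9% and 19.7% of all genes tested, with a median of -0.84. With ERCC scaling 1 of the 11 was called lower with 5-FU alone, and none was called in either direction before 3-MB-PP1 or with 3-MB-PP1 alone or after 5-FU.

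Of 15 measured genes for G1 cyclins, CDKs and their inhibitors, 5 rose and 9 fell with 5-FU alone, beside 21.3% and 22.7% of all genes tested. CCNE2, an E-type cyclin whose gene overlaps INTS8, fell by -3.24, and CDC25A, a phosphatase that activates CDK2, by -2.11. With 3-MB-PP1 alone 1 rose, CCND1, the cyclin D1 gene (0.32), and 3 fell, among them CDC25A (-0.72) and CCNE2 (-0.66). Of all genes tested, 11.6% rose and 16.9% fell there (28.5% in all). After 5-FU, 3 fell, CDKN1A, CCNE1 (-0.83) and CDC25A (-0.83), and 1 rose, CDK2 (0.29), a call lost without 5-FU then 3-MB-PP1 replicate 1. Of all genes tested, 15.7% rose and 17.3% fell with 3-MB-PP1 after 5-FU (33% in all). In both 3-MB-PP1 comparisons the called share of the 15 was thus no higher than that of all genes. Before 3-MB-PP1, 5-FU raised 5 and lowered 7 of the 15, beside 19.7% and 19.9% of all genes tested. With ERCC scaling 1 rose and 2 fell in each of the 5-FU comparisons, and none was called in either 3-MB-PP1 comparison.

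Of 30 E2F target genes of DNA replication and division, all 30 fell with 5-FU alone, beside 22.7% of all genes tested, with a median log2 fold change of -1.67, against 0.003 over all genes tested. With DESeq2 29 of the 30 fell, and the count was not the same in every fit that left out a library. MYB, a transcription factor gene with 8 counts over the 5-FU then DMSO libraries and 96 over the DMSO then DMSO libraries, stood at a ratio of 0.0679 after scaling (exact 95% interval for counting error 0.0285 to 0.139). The largest other falls were of CDC6 (-2.83, SE 0.07), which loads the MCM helicase, and MCM10 (-2.75, SE 0.07), a replication initiation factor. Before 3-MB-PP1, 5-FU lowered 29 of the 30, beside 19.9% of all genes tested, with a median of -1.40. With ERCC scaling 12 of the 30 were called lower with 5-FU alone and 11 before 3-MB-PP1. 3-MB-PP1 alone lowered 18 and raised 1, beside 16.9% and 11.6% of all genes tested, with a median of -0.25. The call of the rise was lost without DMSO then DMSO replicate 1. The largest falls were of MYB (-1.63), CDT1, a licensing factor (-0.70), and CDK1, the mitotic CDK (-0.47). After 5-FU, 3-MB-PP1 raised 16 and lowered 2, beside 15.7% and 17.3% of all genes tested, with a median of 0.18. TYMS, the target enzyme of 5-FU, rose (0.70), although its gene overlaps other genes, and CDT1 fell (-0.53). Without 5-FU then 3-MB-PP1 replicate 2, 9 of the 30 rose. With ERCC scaling no target was called in either 3-MB-PP1 comparison, and the medians were -0.01 for 3-MB-PP1 alone and 0.07 after 5-FU, or -0.20 and 0.18 relative to all genes.

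The interaction of both drugs was positive and called for 15 of the 30 target genes and negative for none, beside 2.11% of all genes tested that were positive and 2.04% that were negative. None was negative at an unadjusted p under 0.05 or with DESeq2. The median difference was 0.37, against 0.014 over all genes. RRM2, a ribonucleotide reductase subunit, had the largest called value (0.57, SE 0.08, edgeR adjusted p = 2.81e-05), followed by HELLS, a chromatin remodeller (0.53), and CDK1 (0.51). The count was 6 without 5-FU then 3-MB-PP1 replicate 2, 9 without 5-FU then DMSO replicate 1 and 8 without DMSO then DMSO replicate 1, and no target was called with ERCC scaling, where the median was 0.03, or 0.33 above that of all genes.

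E2F6 acts within the Polycomb complex PRC1.6, and 14 genes of this complex were described beside it. With 3-MB-PP1 alone 5 fell and 1 rose, beside 16.9% and 11.6% of all genes tested. MGA, the scaffold of the complex, fell by -0.66 (SE 0.06, edgeR adjusted p = 1.29e-08), PCGF6, its RING partner, fell by -0.44 (SE 0.07, edgeR adjusted p = 2.32e-05), and RYBP, a further subunit, rose by 0.32 (SE 0.08, edgeR adjusted p = 0.00434). The other falls were small, and the count was 2 or 3 with DESeq2, with the size factors of DESeq2, with the replicate block, and without either 5-FU then 3-MB-PP1 library, either DMSO then 3-MB-PP1 library or DMSO then DMSO replicate 2. Without the last of these RYBP was not called. After 5-FU, 6 fell and 4 rose, beside 17.3% and 15.7% of all genes tested. MGA stood at -0.91 (SE 0.07, edgeR adjusted p = 1.29e-10), MAX, its dimer partner, at -0.37 and RING1, the ubiquitin ligase, at -0.36. Without 5-FU then 3-MB-PP1 replicate 1 the count of falls was 3. MGA holds a microRNA gene on its own strand and MAX overlaps an antisense gene. With ERCC scaling none of the 14 was called in any comparison. The median of the 14 was -0.10 with 3-MB-PP1 alone and -0.09 after 5-FU, against -1.22 and -1.01 for E2F6 itself. With 5-FU alone 7 fell and 1 rose, beside 22.7% and 21.3% of all genes tested. The falls were led by PCGF6 (-0.95), CBX3, a heterochromatin protein (-0.72), and RNF2 (-0.51). Before 3-MB-PP1 6 fell and 2 rose, beside 19.9% and 19.7%. In both 5-FU comparisons these counts were not the same in every fit that left out a library.

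**Figure D4:**
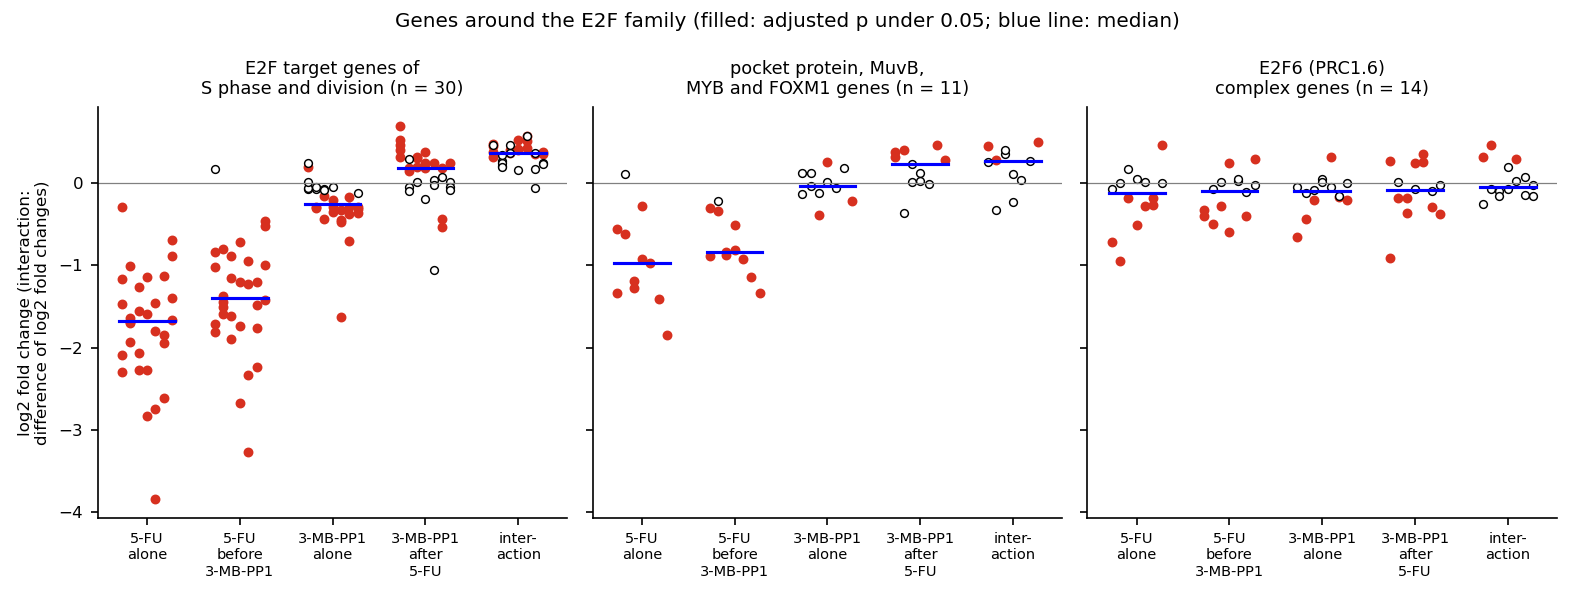
Log2 fold changes (y axis; for the interaction, a difference of log2 fold changes) of 30 E2F target genes, 11 pocket protein and MuvB genes and 14 E2F6 complex genes in the 5 comparisons along the x axis. Each point is a gene, filled at an adjusted p under 0.05, and blue lines are medians. The target medians lie at -1.67 and -1.40 in the 5-FU comparisons and at 0.37 for the interaction.

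Of 4 genes whose products direct E2F1 or other cell cycle proteins to degradation, 3 fell with 5-FU alone, beside 22.7% of all genes tested. These were the ubiquitin ligase subunits CCNF (-1.25) and SKP2 (-1.09) and the APC/C activator CDC20 (-0.98). FZR1, another APC/C activator, rose by 0.19, a call lost with DESeq2, without 5-FU then DMSO replicate 1 and without DMSO then DMSO replicate 1. With 3-MB-PP1 alone CCNF (-0.33), FZR1 (-0.28) and CDC20 (-0.26) fell, beside 16.9% of all genes tested. This count of falls was lower without DMSO then DMSO replicate 2. Of 8 apoptotic genes described as E2F1 targets, 3 rose and 4 fell with 5-FU alone, beside 21.3% and 22.7% of all genes tested. TP73, a p53 relative, fell by -2.13, while BBC3 (1.89) and PMAIP1 (0.82), which are also p53 targets, rose, and TP73 and BBC3 overlap other genes. With 3-MB-PP1 alone BBC3 fell by -0.99, while PMAIP1 rose by 0.68. After 5-FU BBC3 fell by -1.37. With ERCC scaling no gene of either list was called in a 3-MB-PP1 comparison, and with 5-FU alone 1 apoptotic gene was called higher and 1 lower, and no degradation gene.

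The genes nearest in pattern were sought for the 3 family genes with the widest range of group means, E2F2, E2F1 and E2F8 (2.83, 2.73 and 2.30 in log2 CPM). The measure was the root mean square difference of log2 CPM, centred on each gene's own mean over the 8 libraries, among 11896 genes with a mean of at least 5 CPM. E2F2 was nearest to EXO1, a repair nuclease (0.124), MCM10 (0.133) and CHAF1A, a histone chaperone subunit (0.153). E2F1 was nearest to MCM10 (0.0888), the histone gene HIST2H2AB (0.0949) and CHAF1A (0.0976), and E2F8 to BLM, a DNA helicase (0.106), FEN1, a flap nuclease (0.119), and WDR76 (0.126). Between family genes this difference was 0.192 for E2F1 and E2F2, 0.209 for E2F1 and E2F8 and 0.21 for E2F2 and E2F8. It was 0.0852 for E2F7 and TFDP1, the smallest among the pairs of family genes. The group means of E2F7 and TFDP1 ranged over only 0.67 and 0.58 in log2 CPM, and this measure is smaller for genes of narrow range. It thus does not rank pairs of unlike range by how alike they responded. In E2F1, E2F2, E2F7, E2F8, TFDP1 and the neighbours named, every library with 5-FU lay below every library without. These values thus mostly describe that contrast.

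**Figure D5:**
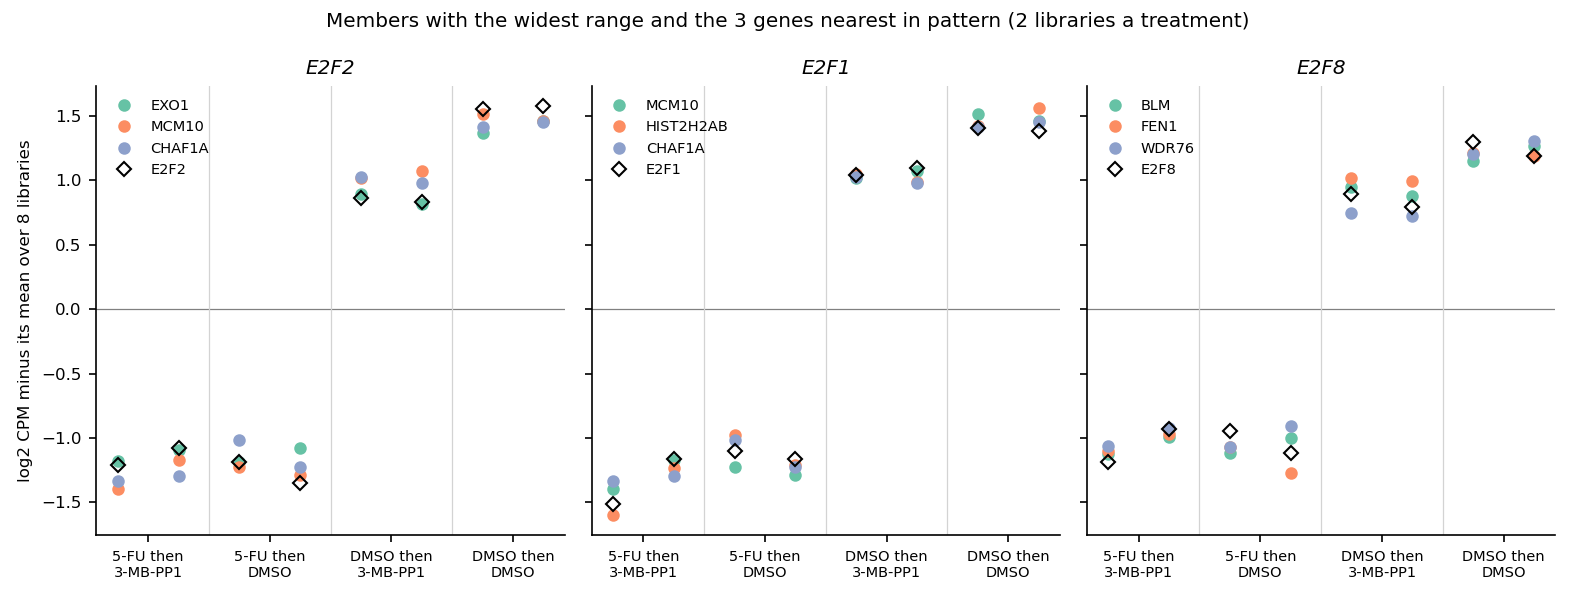
Log2 CPM minus its mean over the 8 libraries (y axis) for E2F2, E2F1 and E2F8 (open diamonds) and the 3 genes nearest to each (coloured circles), with 2 libraries per treatment along the x axis. In each panel the 4 libraries with 5-FU lie below 0 and the 4 without lie above it.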

How the data were processed

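Total RNA of 8 HCT-116 libraries was made into Ribo-Zero libraries and read single-end, per the labels' protocols. TopHat2 2.0.13 and hg19 come from the submitters' processing notes. The counter, its strand setting and the annotation were not given in the sources used here. The deposited tables held raw read counts per RefSeq transcript, and RPKM, in which the authors scaled the count to length and library total. Of 41735 sequences, 92 were ERCC spike-ins; of 6260 rows without a symbol, 5902 were named by accession from RefSeq's GRCh38.p14 gene table and 358 were left out. Counts were tested in R 4.3.3 with edgeR 4.0.16 (filterByExpr, TMM, quasi-likelihood F tests, 1 model of 4 groups, 4 residual degrees of freedom, common biological coefficient of variation 0.0423), with two-sided p-values adjusted by Benjamini-Hochberg over all 15670 genes in each of 5 comparisons and called under 0.05. Standard errors derive from the F statistics. RPKM served for levels only, without a test. The family and the gene lists were chosen with earlier results of these data known. Named were all family genes, up to 3 called genes of each list per comparison by size of change, RB1, RBL1, RBL2 and CDKN1A, and 3 pattern neighbours of each of 3 family genes; some of these are not reported here, and MYBL2, CDK2 and FZR1 were in part named after their values were seen. Alternatives were DESeq2 1.42.0, its size factors, ERCC scaling, no filter, the longest transcript, a replicate block and leaving out each library. The scripts were tested on simulated counts.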

Additional observations from a re-analysis of the deposited data

Results flagged for a closer look

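The interaction test of edgeR was called for 19 of the 56 tested genes whose values the report gives, beside 4.15% of all genes tested. In these 19 the 3-MB-PP1 effect differed between cells with and without 5-FU. Many of the 56 were named for called values or for a pattern over the same libraries. The choice of genes can thus raise this count, which is no result about them as a set. E2F2 averaged 7.89 ± 0.523 CPM after 5-FU then 3-MB-PP1, 7.23 ± 0.563 after 5-FU then DMSO, 31.7 ± 0.462 after DMSO then 3-MB-PP1 and 52.0 ± 0.548 after DMSO then DMSO (SD, n = 2 each), a difference of log2 fold changes of 0.84 (edgeR adjusted p = 0.00215). For CDKN1A the same groups averaged 832 ± 22.5, 1537 ± 66.1, 167 ± 4.98 and 195 ± 4.15 CPM, a difference of -0.67 (edgeR adjusted p = 4.74e-07). RRM2 averaged 156 ± 3.69, 131 ± 5.62, 365 ± 20.4 and 458 ± 11.4 CPM, a difference of 0.57 (edgeR adjusted p = 2.81e-05). HELLS averaged 33.4 ± 0.624, 28.2 ± 1.34, 112 ± 8.09 and 136 ± 9.02 CPM, a difference of 0.53 (edgeR adjusted p = 0.00398). CDK1 averaged 76.2 ± 1.69, 74.1 ± 3.93, 148 ± 7.68 and 204 ± 2.96 CPM, a difference of 0.51 (edgeR adjusted p = 0.000606). Of the others, the difference was positive by edgeR for EXO1 (0.54, adjusted p = 0.00834), WDR76 (0.52, adjusted p = 0.0108), MYBL2 (0.50, adjusted p = 0.00943), PCGF6 (0.46, adjusted p = 0.0123), FOXM1 (0.45, adjusted p = 0.00311, overlapping RHNO1 on the other strand), MCM10 (0.43, adjusted p = 0.0241), CDK2 (0.41, adjusted p = 0.0124), CBX3 (0.32, adjusted p = 0.00658) and RBBP4 (0.28, adjusted p = 0.041). It was negative by edgeR for CCNE1 (-0.68, adjusted p = 0.0024), PMAIP1 (-0.46, adjusted p = 0.0147), CCND1 (-0.44, adjusted p = 0.00048), KRT19 (-0.38, adjusted p = 0.00201) and KRT18 (-0.23, adjusted p = 0.0217). None of the 19 was called with ERCC scaling, under which the interaction was called for 0 genes. The calls of CDK2, PMAIP1, PCGF6 and CBX3 were also lost in some fits that left out a library. Calls among MYBL2, FOXM1 and RBBP4 were lost in some of these fits too. Whether each other call held in every such fit is not listed here. The value of E2F2 ranged over 0.74 to 0.91 in such fits.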

How the results depend on the processing

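No family gene changed its call with the size factors of DESeq2, without the low-count filter, with the longest transcript or with a replicate block. Beyond the family some counts moved. The falls of the E2F6 complex with 3-MB-PP1 alone were 3 with the size factors or the block and 4 without the filter, against 5. Same-numbered libraries did not deviate together (correlations of -0.0623 to 0.0444). These values show no strong shared deviation but cannot tell whether the replicate numbers pair cultures. The block gave 6941 called genes for 5-FU alone and 6248 for 5-FU ahead of 3-MB-PP1. It gave 4508 for 3-MB-PP1 alone, 5214 for 3-MB-PP1 after 5-FU and 675 for the interaction. Without the block the counts were 6901, 6204, 4460, 5165 and 651. With ERCC scaling the called genes were 244, 140, 113, 52 and 0 in the same order, and the family genes called 3, 3, 0, 0 and 0; with 3-MB-PP1 alone 108 of the 113 were higher and 5 lower, against 1811 and 2649 with TMM. DESeq2 called 5352, 4480, 2673, 3375 and 380 genes. Leaving out 1 library gave 1 or 2 family genes for the interaction, 2 without DMSO then 3-MB-PP1 replicate 2, and between 241 and 911 genes in all. The values that changed sign were all of uncalled genes. With ERCC scaling these were TFDP2 with 5-FU alone (0.09); E2F5 (0.14), E2F7 (0.19), TFDP1 (0.21) and TFDP2 (0.06) with 3-MB-PP1 alone; TFDP1 after 5-FU (-0.02); E2F5 (-0.16) and TFDP2 (-0.15) with 5-FU before 3-MB-PP1; and E2F1 (-0.19), E2F5 (-0.30), E2F6 (-0.09), TFDP1 (-0.23) and TFDP2 (-0.24) for the interaction. The interaction of E2F5 was -0.01 without a filter, -0.02 with the replicate block and 0 with DESeq2. Over the libraries left out, E2F5 ranged over -0.07 to 0.16 with 5-FU alone, E2F7 over -0.07 to 0.01 and TFDP1 over -0.04 to 0.01 with 3-MB-PP1 alone, and after 5-FU E2F5 over -0.18 to 0.05, E2F8 over -0.16 to 0.10 and TFDP2 over -0.14 to 0.02. With 5-FU before 3-MB-PP1 E2F5 ranged over -0.04 to 0.14, E2F6 over -0.08 to 0.01 and TFDP2 over -0.05 to 0.12, and for the interaction E2F1 over -0.08 to 0.29, E2F5 over -0.11 to 0.13 and TFDP2 over -0.03 to 0.16. The cause of these changes was not tested. With 2 libraries per group and as few as 54 counts for E2F1, small effects in the groups with 5-FU were the least well resolved.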
